A study of Mus musculus with 12 samples.

Results

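The comparison set 6 libraries from mice that carry 1 intact copy of Tet2 against the other 6 of the 12 libraries in the series. Members were chosen by genotype label alone. The carrier libraries came from 3 Tet2+/- mice and 3 NrasG12D/+;Tet2+/- mice, and the Tet2 wild-type libraries from 3 wild-type mice and 3 NrasG12D/+ mice. The Nras allele was therefore present in 3 of 6 libraries on each side and entered the fit as a block. All mice were C57BL/6 animals of 10 to 12 weeks, and the cells were hematopoietic stem cells (HSCs) sorted from bone marrow as Lin-Sca1+cKit+CD150+CD48-, the SLAM gate. The NrasG12D/+ allele encodes the activated G12D form of the small GTPase Nras. How either allele was made or switched on is not given in the sources used here. Total RNA depleted of ribosomal and mitochondrial transcripts was made into stranded libraries, and the deposited values are log2 RPKM, a measure of reads corrected for the length of the gene and for the depth of its library.

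Tet2 encodes a dioxygenase that oxidises methylated cytosine in DNA, a step towards loss of the methyl mark at enhancers and promoters. Its mutation is frequent in clonal hematopoiesis and in myeloid malignancies, where 1 copy is often lost, and mouse HSCs without Tet2 are known for increased self-renewal. Pooling both Nras genotypes asks what 1 missing copy of Tet2 did to the HSC transcriptome whatever the Nras allele.

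Each library held between 19205045 and 36890942 reads in genes. Carriers and Tet2 wild-type libraries did not differ detectably in reads, genes at 1 RPKM or more, genes without a read, mitochondrial share or the share taken by the top genes, with exact permutation p between 0.47 and 0.945 over 400 arrangements within Nras genotype. Males, told from Xist and Y-linked transcripts, gave 3 carrier libraries and 2 Tet2 wild-type libraries. The male libraries were replicate 1 of every genotype and Tet2+/- replicate 3. Markers of the gate were checked first. Slamf1, which encodes CD150, ranged from 3.17 to 8.97 RPKM in carriers and from 5.26 to 11.3 RPKM in Tet2 wild-type libraries. Ly6a, which encodes Sca1, ranged from 3.51 to 7.65 RPKM in carriers and from 2.21 to 8.32 RPKM in Tet2 wild-type libraries. Kit, the stem cell factor receptor, lay between 74.4 and 85.9 RPKM in carriers and between 64.7 and 86.0 RPKM in Tet2 wild-type libraries. Cd48, which the gate removes, stayed at or below 1.01 RPKM in carriers and 1.28 RPKM in Tet2 wild-type libraries. The summed level of 34 HSC identity genes ranged from 744 to 874 RPKM in carriers and from 773 to 885 RPKM in Tet2 wild-type libraries. In bulk RNA, fewer cells with a transcript and less of it in each cell cannot be told apart. 1 library stood apart. Wild-type replicate 2 had carrier-like levels of Gbp2b, Ifi44l and Cbr3, so results on these genes are given with and without it, and it was kept in its labelled group.

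The Tet2 transcript itself did not separate the groups. Tet2+/- replicates 1 to 3 had 5.23, 4.09 and 4.82 RPKM and NrasG12D/+;Tet2+/- replicates 4.50, 5.68 and 4.76 RPKM. Wild-type replicates had 4.93, 4.94 and 4.98 RPKM and NrasG12D/+ replicates 7.03, 5.27 and 4.84 RPKM. The groups overlapped, although 4 of 6 carriers lay below the lowest Tet2 wild-type library. The log2 difference, carriers minus Tet2 wild type, was -0.13 ± 0.13 (SE) with a 95% interval of -0.43 to 0.17 and adjusted p = 0.958 by limma. That interval does not reach a halving of reads over the whole gene, which would be a log2 difference of -1. Where in the gene the allele is altered is not given in the sources used here, so a gene-wide value does not check the genotype labels. Nras mRNA ranged from 5.10 to 6.83 RPKM in carriers and from 4.76 to 6.47 RPKM in Tet2 wild-type libraries, a log2 difference of 0.12 with a 95% interval of -0.17 to 0.42.

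Across the transcriptome, no gene passed the test between carriers and Tet2 wild-type HSCs. Of 15478 genes with 1 RPKM or more in at least 3 libraries, 0 (0%) passed an adjusted p of 0.05 by limma with Benjamini-Hochberg adjustment, and the smallest adjusted p was 0.958. At an unadjusted p under 0.05 there were 616 genes (3.98% of those tested), 307 higher (1.98%) and 309 lower (2%) in carriers. A voom fit to the recovered reads called 0 genes as well, with 782 at an unadjusted p under 0.05. Without wild-type replicate 2 the test called 1 gene (0.00646%), Gbp2b, with 786 (5.08%) at an unadjusted p under 0.05. That library was singled out by its own level of Gbp2b, so the call cannot count as a test of the gene.

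The precision behind that count depended on level. For 8785 genes (56.8%) the 95% interval of the log2 difference lay within ±1, and for 3684 genes (23.8%) within ±0.5. The median SE was 1.95 for genes under 1 RPKM, 0.41 between 1 and 5 RPKM, 0.20 between 5 and 20 RPKM and 0.13 above 100 RPKM. The interval excluded a 2-fold difference in either direction for 95% of the genes above 100 RPKM and for 1.38% of those under 1 RPKM.

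**Figure D1:**
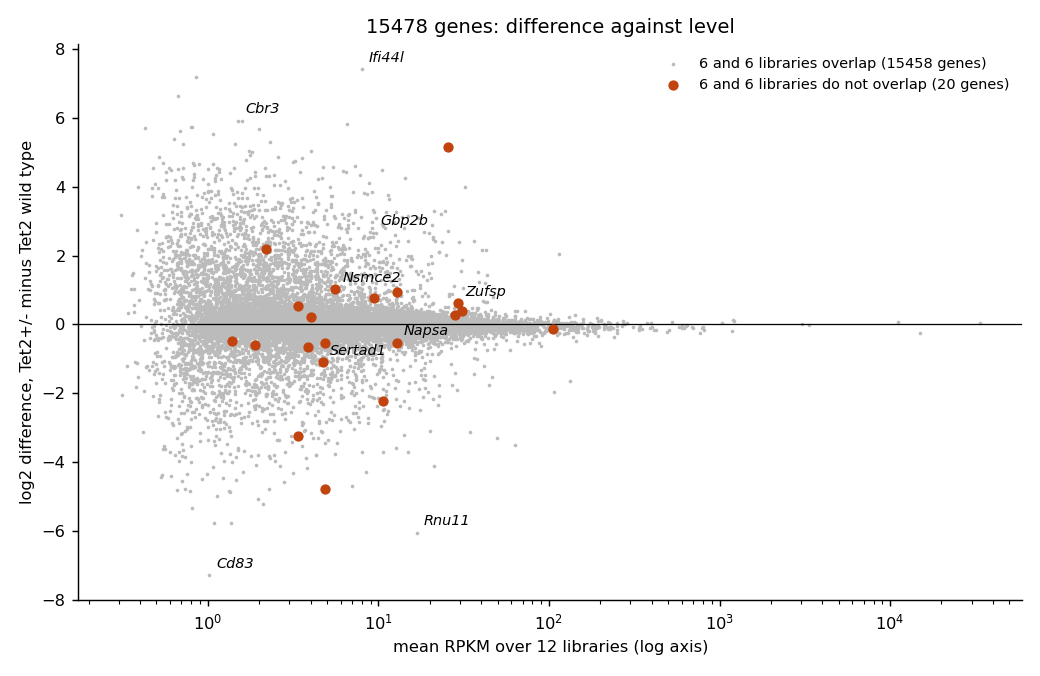
Log2 difference between Tet2+/- carriers and Tet2 wild-type libraries (y axis) against the mean RPKM over the 12 libraries (x axis, log scale), 1 point per gene over 15478 genes. The spread of the differences narrows as the mean level grows, and the labelled genes are among those described in the text.

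The Tet2 effect was also estimated separately in each Nras genotype, in pairs of groups that share no library. Between NrasG12D/+;Tet2+/- and NrasG12D/+ libraries 625 genes (4.04%) had an unadjusted p under 0.05, and between Tet2+/- and wild-type libraries 519 genes (3.35%). There were 22 genes (0.142%) that did so in both with the same sign. Over all genes the 2 estimates had Pearson's r of 0.009 and Spearman's rho of 0.025, and 7987 genes (51.6%) had the same sign. Among the 1832 genes with a mean of 20 RPKM or more, r was 0.068 and rho 0.083, and 56.1% had the same sign. These are correlations across genes, which are not independent replicates.

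Gbp2b, an interferon-inducible guanylate-binding GTPase on chromosome 3 (chr3:142594847-142619179, GRCm38), had the smallest p among genes higher in carriers. Tet2+/- replicates had 13.8, 15.7 and 17.0 RPKM and NrasG12D/+;Tet2+/- replicates 10.2, 13.9 and 18.0 RPKM. Wild-type replicates had 2.60, 14.8 and 1.55 RPKM and NrasG12D/+ replicates 1.01, 1.503 and 1.57 RPKM. All 6 carriers were high and 5 of 6 Tet2 wild-type libraries were low, and wild-type replicate 2 lay inside the carrier range. The log2 difference was 2.67 ± 0.49 (95% interval 1.58 to 3.75) with adjusted p = 0.958 by limma over all 12 libraries. Without wild-type replicate 2 it was 3.17 with adjusted p = 0.00065 by limma. That replicate was singled out by its own Gbp2b level, so this p cannot count as a test of the gene. The difference was 3.35 on the log2 scale between NrasG12D/+;Tet2+/- and NrasG12D/+ libraries and 1.98 between Tet2+/- and wild-type libraries, an interaction of 1.37 ± 0.94 with adjusted p = 0.996.

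The guanylate-binding genes beside Gbp2b on chromosome 3 did not share its pattern. Gbp2, the next gene, averaged 28.8 ± 2.10 RPKM in carriers and 27.3 ± 9.11 RPKM in Tet2 wild-type libraries (SD, n = 6 each). Gbp7 averaged 20.2 ± 1.21 RPKM in carriers and 20.1 ± 1.23 RPKM in Tet2 wild-type libraries. Gbp3 averaged 4.82 RPKM in carriers and 4.80 RPKM in Tet2 wild-type libraries, and Gbp5 3.83 RPKM in carriers and 4.19 RPKM in Tet2 wild-type libraries. These paralogs resemble each other in sequence, and how reads that fit several of them were assigned is not given in the sources used here, so single members are uncertain.

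The promoters of Gbp2b and Gbp2 are shown because these adjoining genes differ in pattern, and those of Ifi44l and Ifi44 for the same reason. Each line runs from 250 bases before to 50 bases after the gene start on the gene's own strand, from RefSeq on GRCm38.p6. Capitals mark matches to GAAANNGAAA or its reverse complement TTTCNNTTTC, the core of the interferon-stimulated response element, searched on both strands.
Gbp2b promoter, plus strand, chr3:142594597-142594896: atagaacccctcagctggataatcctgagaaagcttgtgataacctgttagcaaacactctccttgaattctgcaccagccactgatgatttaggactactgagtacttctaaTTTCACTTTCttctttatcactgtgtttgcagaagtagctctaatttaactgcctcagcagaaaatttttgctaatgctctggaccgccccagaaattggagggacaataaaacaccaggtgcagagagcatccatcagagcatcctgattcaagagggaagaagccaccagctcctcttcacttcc
Gbp2 promoter, plus strand, chr3:142620413-142620712: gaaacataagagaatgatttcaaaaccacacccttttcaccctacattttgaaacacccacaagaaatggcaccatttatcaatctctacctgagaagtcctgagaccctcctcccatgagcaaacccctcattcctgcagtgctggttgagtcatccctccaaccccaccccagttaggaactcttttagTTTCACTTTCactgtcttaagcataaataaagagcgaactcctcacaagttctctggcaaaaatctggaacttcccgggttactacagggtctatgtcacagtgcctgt
Ifi44l promoter, minus strand, chr3:151762842-151763141: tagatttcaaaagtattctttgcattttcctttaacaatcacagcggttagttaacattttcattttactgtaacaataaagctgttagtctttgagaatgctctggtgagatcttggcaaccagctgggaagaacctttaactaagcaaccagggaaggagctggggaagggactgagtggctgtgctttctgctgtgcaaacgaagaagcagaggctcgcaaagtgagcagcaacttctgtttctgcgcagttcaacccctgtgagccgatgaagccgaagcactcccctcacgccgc
Ifi44 promoter, minus strand, chr3:151749861-151750160: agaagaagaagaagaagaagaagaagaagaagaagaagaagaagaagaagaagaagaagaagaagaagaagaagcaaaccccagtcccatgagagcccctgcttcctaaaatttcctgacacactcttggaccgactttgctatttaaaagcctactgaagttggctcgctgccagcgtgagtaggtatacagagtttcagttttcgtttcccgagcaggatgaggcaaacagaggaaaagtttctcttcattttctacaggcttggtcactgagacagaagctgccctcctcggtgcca
The match began 137 bases before the start of Gbp2b and 59 bases before that of Gbp2, and neither Ifi44l nor Ifi44 held 1 in this window. Only exact matches were searched, so a promoter without a match may still hold another form of the element. Among 32851 RefSeq promoters of the same length, 1131 (3.44%) held at least 1 match. Gbp2b and Gbp2 thus shared the letters while their levels differed in pattern between the groups. The match was not particular to this pair. There were 2 matches in a Gbp3 promoter and 0 in another of that gene, and 1 each in the promoters of Gbp5 and Gbp7.

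Ifi44l, another interferon-induced gene of chromosome 3, was chosen after its values were seen, since it was either near 0 or well expressed. Tet2+/- replicates had 385, 550 and 633 reads and NrasG12D/+;Tet2+/- replicates 616, 694 and 1 read. Wild-type replicates had 0, 640 and 0 reads and NrasG12D/+ replicates 1, 0 and 0 reads. So 5 of 6 carriers and wild-type replicate 2 had at least 385 reads, and NrasG12D/+;Tet2+/- replicate 3 and the other 5 Tet2 wild-type libraries had at most 1. The log2 difference was 7.41 ± 2.16, and 9.14 without wild-type replicate 2, with adjusted p of 0.958 and 0.877 by limma. These log2 values depend on the prior added to each count. Ifi44, the adjoining paralog, averaged 9.63 ± 1.47 RPKM in carriers and 8.18 ± 2.73 RPKM in Tet2 wild-type libraries (SD, n = 6 each), a log2 difference of 0.29.

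Cbr3, a carbonyl reductase on chromosome 16, had no read in 4 of 6 Tet2 wild-type libraries. Reads were 195, 57 and 38 in Tet2+/- replicates and 107, 56 and 61 in NrasG12D/+;Tet2+/- replicates. They were 0, 62 and 0 in wild-type replicates and 0, 0 and 17 in NrasG12D/+ replicates. Every carrier had reads, as did wild-type replicate 2 and NrasG12D/+ replicate 3. The log2 difference was 5.91 ± 1.56, and 7.17 without wild-type replicate 2, where adjusted p was 0.735 by limma.

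**Figure D2:**
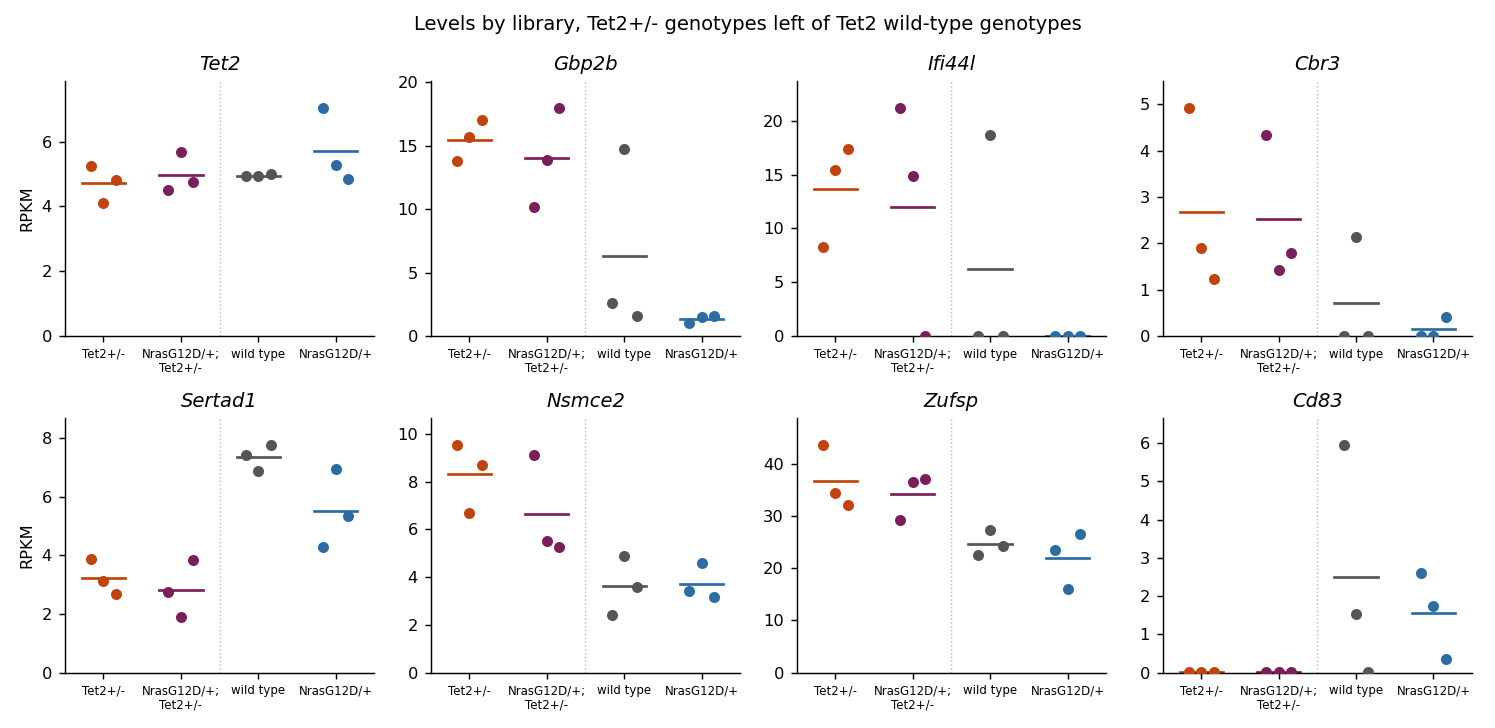
RPKM of 8 genes (y axes, from 0) in each library (dots) by genotype, with the genotype mean as a line: Tet2+/- and NrasG12D/+;Tet2+/- to the left of wild type and NrasG12D/+. For Gbp2b, Ifi44l and Cbr3 wild-type replicate 2 lies among the carriers, at 14.8 RPKM for Gbp2b, and Cd83 has reads in 5 Tet2 wild-type libraries and in no carrier.

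Tet2, Gbp2b and Ifi44l lie on the same chromosome, Gbp2b 9.13 Mb and Ifi44l 18.3 Mb from Tet2 by start coordinate. Among 36 tested genes within 5 Mb of Tet2, 2 (5.56%) had an unadjusted p under 0.05. The share was 9.09% (2 of 22) at 5 to 10 Mb, 4.62% (3 of 65) at 10 to 20 Mb, 1.99% (4 of 201) at 20 to 40 Mb and 2.41% (9 of 373) beyond 40 Mb, against 3.98% over all genes tested. None of these genes passed the adjusted threshold.

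The 2 genes within 5 Mb were Elovl6, an elongase of long-chain fatty acids, and Cisd2, an iron-sulfur protein of the endoplasmic reticulum and mitochondria. Elovl6 ranged from 7.06 to 9.67 RPKM (median 8.30) in carriers and from 5.62 to 7.10 RPKM (median 6.01) in Tet2 wild-type libraries, a log2 difference of 0.41 ± 0.12. Cisd2 ranged from 5.22 to 10.2 RPKM (median 8.74) in carriers and from 8.71 to 13.1 RPKM (median 10.9) in Tet2 wild-type libraries, a log2 difference of -0.39 ± 0.17. Both pairs of ranges overlapped. None of the 3 nearest tested genes on each side had an unadjusted p under 0.05. On the side of lower coordinates the log2 difference was -0.18 ± 0.24 for Ppa2, a mitochondrial pyrophosphatase, 0.24 ± 0.28 for Ints12, a subunit of the Integrator complex, and 0.21 ± 0.26 for Gstcd. On the other side it was -0.00 ± 0.16 for Cenpe, a kinetochore motor, 0.50 ± 0.30 for Bdh2, a hydroxybutyrate dehydrogenase, and 1.31 ± 0.97 for Slc9b2, a sodium-proton exchanger. Alpk1, a kinase of innate immune sensing that lies 5.79 Mb from Tet2 and was chosen after its values were seen, ranged from 2.91 to 5.84 RPKM in carriers and from 1.97 to 3.40 RPKM in Tet2 wild-type libraries, with a log2 difference of 0.84 ± 0.23.

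**Figure D3:**
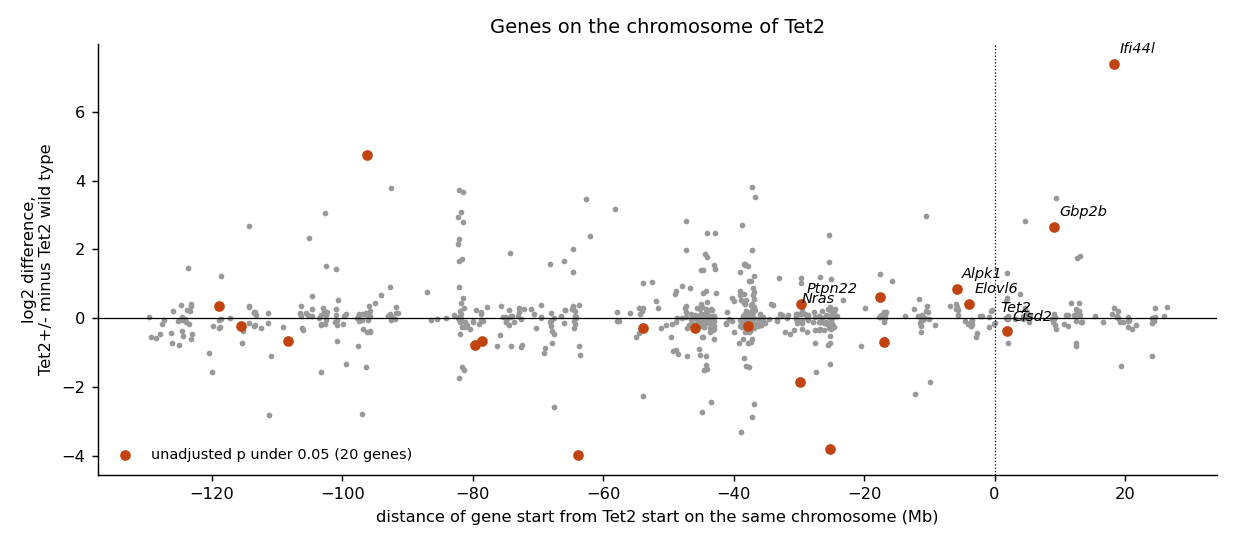
Log2 difference between Tet2+/- carriers and Tet2 wild-type libraries (y axis) for the tested genes of chromosome 3 against their distance from Tet2 in Mb (x axis). Gbp2b lies at 9.13 Mb with a log2 difference of 2.67 and Ifi44l at 18.3 Mb with 7.41, 9530052C20Rik at 9.42 Mb has 3.501 with an unadjusted p of 0.0605, and 36 genes lie within 5 Mb of Tet2.

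Among the other genes higher in carriers by the naming rule, 3 had ranges that did not overlap. Over all genes tested, 20 (0.129%) did not overlap in either direction. The named genes were chosen by smallest p, so missing overlap among them is no separate evidence. Nsmce2, a SUMO ligase of the Smc5/6 complex in DNA repair, ranged from 5.27 to 9.54 RPKM (median 7.69) in carriers and from 2.42 to 4.87 RPKM (median 3.504) in Tet2 wild-type libraries. Its log2 difference was 1.02 ± 0.22. Zufsp, a deubiquitinase of the DNA damage response, ranged from 29.2 to 43.6 RPKM (median 35.4) in carriers and from 15.9 to 27.4 RPKM (median 23.9) in Tet2 wild-type libraries, a log2 difference of 0.61 ± 0.13. Lsm4, an Sm-like protein of splicing and mRNA decay particles, ranged from 13.5 to 21.3 RPKM (median 15.9) in carriers and from 5.10 to 13.0 RPKM (median 9.87) in Tet2 wild-type libraries, a log2 difference of 0.94 ± 0.24. All 6 carriers were above all 6 Tet2 wild-type libraries for each of them, and all had adjusted p = 0.958 by limma.

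The remaining higher genes overlapped between the groups. The zinc finger gene Zfp958 had a log2 difference of 1.30 ± 0.33, Cdk5rap2, a centrosomal protein, 0.45 ± 0.11 and Ptpn22, a tyrosine phosphatase of lymphocyte signalling, 0.41 ± 0.11. Ptpn22 is on chromosome 3, 29.6 Mb from Tet2. Dynlt1f, a dynein light chain, had a log2 difference of 0.74 ± 0.20 and the processed pseudogene Rplp1-ps1 2.06 ± 0.56. Dynlt1f and Rplp1-ps1 have near-identical copies elsewhere in the genome and may share reads with them, so both are uncertain.

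Sertad1 had the smallest p of all genes and was lower in every carrier. This regulator of cyclin D kinases and of E2F-dependent transcription ranged from 1.89 to 3.87 RPKM (median 2.94) in carriers and from 4.28 to 7.77 RPKM (median 6.92) in Tet2 wild-type libraries. Its log2 difference was -1.10 ± 0.20 (95% interval -1.54 to -0.66) with an unadjusted p of 0.000179 and adjusted p = 0.958 by limma. The value was -0.997 between NrasG12D/+;Tet2+/- and NrasG12D/+ libraries and -1.20 between Tet2+/- and wild-type libraries. Napsa, an aspartic protease, also had separate ranges, 7.58 to 12.8 RPKM (median 10.6) in carriers and 13.4 to 20 RPKM (median 14.4) in Tet2 wild-type libraries, with a log2 difference of -0.53 ± 0.13. Sertad1 and Napsa are among the 20 genes (0.129% of those tested) without overlap.

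Cd83, a surface protein of the immunoglobulin family known from dendritic cells and activated lymphocytes, had no read in any carrier. Wild-type replicates had 255, 82 and 0 reads and NrasG12D/+ replicates 166, 109 and 28 reads. Taking 3 reads per library as the floor, the carrier mean was at least 40.2-fold lower than the Tet2 wild-type mean of 2.03 RPKM. It was at least 30.3-fold lower in NrasG12D/+;Tet2+/- than in NrasG12D/+ libraries, and at least 50.7-fold lower in Tet2+/- than in wild-type libraries. Wild-type replicate 3 was at 0 like the carriers, and adjusted p was 0.958 by limma.

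Rnu11, the U11 RNA of the minor spliceosome, had 0, 14 and 0 reads in Tet2+/- replicates and 0, 0 and 29 in NrasG12D/+;Tet2+/- replicates. It had 229, 14 and 45 reads in wild-type replicates and 64, 238 and 63 in NrasG12D/+ replicates. Most carriers had no read, yet wild-type replicate 2 matched Tet2+/- replicate 2. The log2 difference was -6.05 ± 1.44. Within the Tet2 wild-type group alone its level varied between 4.25 and 85.4 RPKM.

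The other genes lower in carriers had moderate differences and ranges that overlapped. Vegfc, a growth factor for lymphatic vessels, ranged from 2.07 to 5.18 RPKM (median 2.97) in carriers and from 4.25 to 9.21 RPKM (median 6.37) in Tet2 wild-type libraries, a log2 difference of -1.03 ± 0.26. Clp1, an RNA kinase of tRNA splicing and mRNA end formation, ranged from 0.949 to 2.29 RPKM (median 1.78) in carriers and from 2.22 to 4.76 RPKM (median 3.54) in Tet2 wild-type libraries, a log2 difference of -1.10 ± 0.29. Snrnp27, a component of the spliceosomal tri-snRNP, had -0.74 ± 0.18, and Mrpl50, a mitochondrial ribosomal protein, -0.53 ± 0.14. Fam3c, a secreted cytokine-like protein, had -0.68 ± 0.19, and Zdhhc16, a palmitoyltransferase, -0.64 ± 0.18. All these had adjusted p = 0.958 by limma.

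The 6 carriers and 6 Tet2 wild-type libraries did not overlap for 20 genes (0.129% of those tested), 10 higher (0.0646%) and 10 lower (0.0646%) in carriers, a list drawn up from the values themselves. Beyond the named genes, the higher ones were Nek9, a mitotic kinase, Tnrc6a, a scaffold of miRNA silencing, Suv420h1, a histone methyltransferase, Tmcc1, Mrpl27, Gm13248 and the hairpin mmu-mir-721. Nek9 was the tightest of them, with 29.7 to 31.3 RPKM (median 30.5) in carriers and 22.97 to 28.9 RPKM (median 24.1) in Tet2 wild-type libraries and a log2 difference of 0.28 ± 0.08. Tnrc6a ranged from 30.1 to 43.7 RPKM in carriers and from 21.1 to 29.3 RPKM in Tet2 wild-type libraries. The other lower ones were Cnbp, a nucleic acid-binding protein, Ptp4a3, a phosphatase, Gbp9, Gm10358, Gm13181, Gm14472, Gm27010 and Gm3222. Cnbp ranged from 92.2 to 104.4 RPKM in carriers and from 104.6 to 119.4 RPKM in Tet2 wild-type libraries, a log2 difference of -0.14 ± 0.06.

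The mmu-mir-721 entry is shown with its mature sequence because it names a seed shared by a miRNA family. RefSeq places the mature form at chr5:136375777-136375797 on the minus strand of GRCm38.p6, and capitals mark the seed, bases 2 to 8.
mmu-miR-721: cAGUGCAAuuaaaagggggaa
Of 1738 mature mouse miRNAs in the reference sequences, 7 hold this seed, among them mmu-miR-130a-3p, mmu-miR-130b-3p and mmu-miR-301a-3p. The entry in the deposited values is the hairpin, and the level of the mature miRNA cannot be read from it. Tet2+/- replicates had 76, 146 and 89 reads and NrasG12D/+;Tet2+/- replicates 75, 126 and 126. Wild-type replicates had 0, 26 and 71 reads and NrasG12D/+ replicates 0, 0 and 30. All 6 carriers lay above all 6 Tet2 wild-type libraries, with 25.5 against 23.5 RPKM between the nearest, and the log2 difference was 5.16 ± 1.48 with adjusted p = 0.958 by limma.

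The gene lists that follow describe how known programs stood, by the sign and size of each member's difference. Over all genes tested, 52.5% were higher in carriers and the median log2 difference was 0.018. No member of any of the 39 lists passed the adjusted threshold. Without wild-type replicate 2 the list medians moved by at most 0.212, for immediate early genes, and by over 0.1 also for erythroid genes and for stroma and endothelium, among the 37 lists with at least 5 tested genes.

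HSC identity genes were close to even. Of 34 tested, 17 were higher and 17 lower in carriers, with a median log2 difference of -0.004, which changed sign in 12 of the alternatives run, and a range from -0.17 to 0.24. For 33 of the 34, the 95% interval lay within ±1. Runx1, a transcription factor required for blood stem cell emergence, ranged from 15.5 to 18.9 RPKM (median 16.4) in carriers and from 12.4 to 16.5 RPKM (median 13.7) in Tet2 wild-type libraries, a log2 difference of 0.24 ± 0.09. Kit had a median of 76.8 RPKM in carriers and 67.7 RPKM in Tet2 wild-type libraries, a log2 difference of 0.17 ± 0.07. The groups overlapped for both. Mecom, a transcription factor of HSC maintenance, averaged 9.60 ± 0.76 RPKM in carriers and 9.62 ± 1.38 RPKM in Tet2 wild-type libraries (SD, n = 6 each).

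Genes that write, read or erase cytosine modification, the process Tet2 acts in, split into 13 higher and 16 lower of 29 tested, with a median of -0.008 that changed sign in 8 of the alternatives run. The other Tet enzymes differed little, Tet3 by 0.10 ± 0.08 and Tet1 by 0.08 ± 0.16 on the log2 scale. The DNA methyltransferases had log2 differences of -0.08 ± 0.10 for Dnmt1, -0.09 ± 0.09 for Dnmt3a and 0.05 ± 0.17 for Dnmt3b. Cxxc1, which binds unmethylated CpG and recruits a histone methyltransferase, was the member with the smallest p. It ranged from 30.4 to 37.1 RPKM (median 32.4) in carriers and from 34.7 to 56.7 RPKM (median 41.1) in Tet2 wild-type libraries, a log2 difference of -0.33 ± 0.12. Of 35 Polycomb, Trithorax and Asxl genes 20 were higher and 15 lower, with a median of 0.046. Ring1, a ubiquitin ligase of Polycomb repressive complexes, had 0.52 ± 0.23, Asxl1 0.12 ± 0.08 and Ezh2, the histone methyltransferase, -0.04 ± 0.13.

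**Figure D4:**
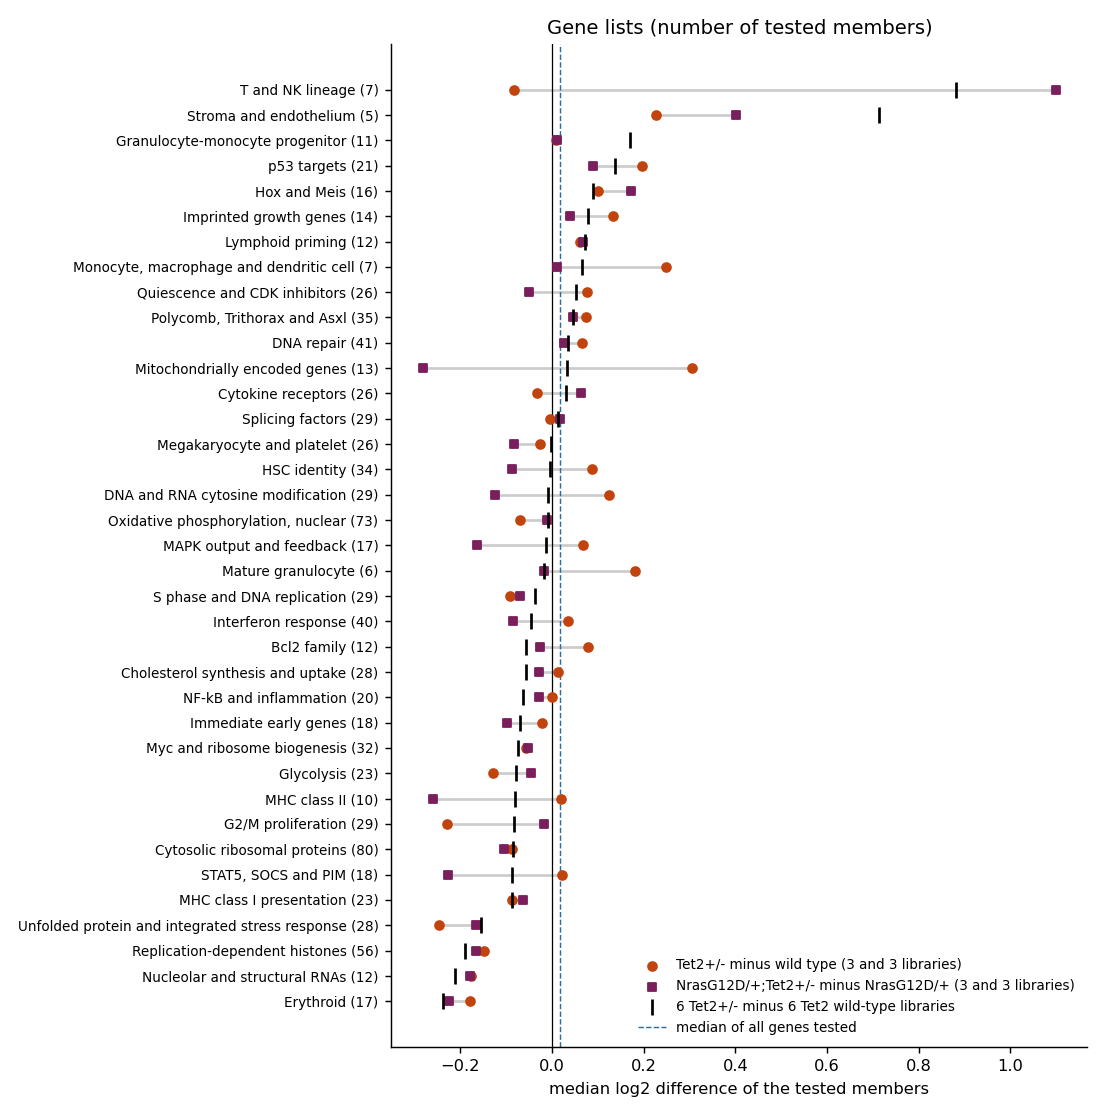
Median log2 difference of the tested members (x axis) for each gene list with at least 5 tested genes. Dots give the median for Tet2+/- minus wild type, and squares that for NrasG12D/+;Tet2+/- minus NrasG12D/+. Ticks give the median for all carriers minus all Tet2 wild-type libraries. The ticks of replication-dependent histones (-0.191) and of the unfolded protein and integrated stress response (-0.156) lie to the left of the median of all genes (0.018, dashed line).

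Several growth and division lists had more members lower than higher in carriers. Of 56 replication-dependent histone genes 45 were lower and 11 higher, with a median of -0.191. Leaving out 1 library moved that median to between -0.248, without NrasG12D/+ replicate 1, and -0.054, without NrasG12D/+ replicate 3. Hist1h4f ranged from 3.53 to 22.98 RPKM (median 7.02) in carriers and from 6.17 to 41.9 RPKM (median 16.9) in Tet2 wild-type libraries, a log2 difference of -1.22 ± 0.45. Hist1h2bh had -0.61 ± 0.23 and Hist1h2bm -1.15 ± 0.46. Histone genes have near-identical copies, so single members are uncertain. The libraries of each group spanned a wide range for these genes, and the groups overlapped.

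Of 29 S phase and DNA replication genes 21 were lower and 8 higher, with a median of -0.037, which turned positive when wild-type replicate 3 was left out. Cdc45, a subunit of the replicative helicase, ranged from 4.58 to 6.96 RPKM (median 5.64) in carriers and from 5.77 to 10.3 RPKM (median 8.08) in Tet2 wild-type libraries, a log2 difference of -0.49 ± 0.16. Mcm3, a subunit of the same helicase, had -0.26 ± 0.11, Gins2, another, -0.69 ± 0.31 and Ccne2, a cyclin of S phase entry, -0.68 ± 0.31. Of 29 G2/M genes 18 were lower and 11 higher, with a median of -0.083 that turned positive with library quality weights and ranged from -0.152 to -0.017 when 1 library was left out. Ccnb2, a mitotic cyclin, ranged from 4.61 to 22.1 RPKM (median 13.7) in carriers and from 10.3 to 29.8 RPKM (median 23.96) in Tet2 wild-type libraries, a log2 difference of -0.78 ± 0.28. Mki67, the proliferation marker, averaged 114 ± 44.8 RPKM in carriers and 106 ± 33.9 RPKM in Tet2 wild-type libraries (SD, n = 6 each). Of 26 genes of quiescence and CDK inhibition 14 were higher and 12 lower, with a median of 0.052 that changed sign in 9 of the alternatives run and ranged from -0.092 to 0.276 when 1 library was left out.

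Among genes of protein synthesis, 57 of 80 cytosolic ribosomal protein genes were lower and 23 higher in carriers, with a median of -0.086. Leaving out 1 library moved it to between -0.180, without NrasG12D/+ replicate 1, and -0.035, without NrasG12D/+;Tet2+/- replicate 1. Rps7 ranged from 99.4 to 139 RPKM (median 115) in carriers and from 120.5 to 151 RPKM (median 143) in Tet2 wild-type libraries, a log2 difference of -0.26 ± 0.09. Rpl41 had -0.43 ± 0.15 and Rpl21 -0.55 ± 0.24. Ribosomal protein genes have many processed pseudogenes that may share their reads. Of 28 genes of the unfolded protein and integrated stress response 23 were lower and 5 higher, with a median of -0.156 that ranged from -0.221 to -0.093 when 1 library was left out, and none had an unadjusted p under 0.05. Herpud1, a protein of endoplasmic reticulum degradation, had -0.41 ± 0.23 and Sdf2l1, a chaperone partner in the same organelle, -0.71 ± 0.43. The medians of histones, ribosomal proteins and stress response were negative in every alternative run, at sizes that moved as given. The alternatives reuse the same libraries, so a kept sign in any list is no separate evidence. After additive terms for Tet2 and Nras genotype, the residual SD of the list level between libraries was 0.259, 0.177 and 0.135 on the log2 scale, in the same order.

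Immune lists held no gene that passed the test. Of 40 interferon response genes 24 were lower and 16 higher in carriers, with a median of -0.047, and none had an unadjusted p under 0.05. The median changed sign in 6 of the alternatives run and reached 0.028 without NrasG12D/+ replicate 2. The list holds Ifi44, Gbp2, Gbp3 and Gbp7 but not Gbp2b, Ifi44l or Gbp9, which had unadjusted p of 0.000201, 0.0055 and 0.00468. Irf7, a transcription factor that amplifies the interferon response, had -0.57 ± 0.33, Igtp, an interferon-inducible GTPase, -0.45 ± 0.22 and Ifi44 0.29 ± 0.23. Of 23 genes of MHC class I presentation 17 were lower and 6 higher, with a median of -0.088 that was negative in every alternative run and ranged from -0.114 to -0.040 when 1 library was left out. Psme1, a subunit of the proteasome activator induced by interferon, ranged from 18.0 to 22.6 RPKM (median 20.2) in carriers and from 18.7 to 28.7 RPKM (median 24.1) in Tet2 wild-type libraries, a log2 difference of -0.25 ± 0.08. H2-Ab1, an MHC class II chain, ranged from 9.45 to 23.3 RPKM (median 11.1) in carriers and from 12.9 to 27.98 RPKM (median 18.6) in Tet2 wild-type libraries, a log2 difference of -0.68 ± 0.24. 5 of 6 carriers lay below every Tet2 wild-type library for H2-Ab1.

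**Figure D5:**
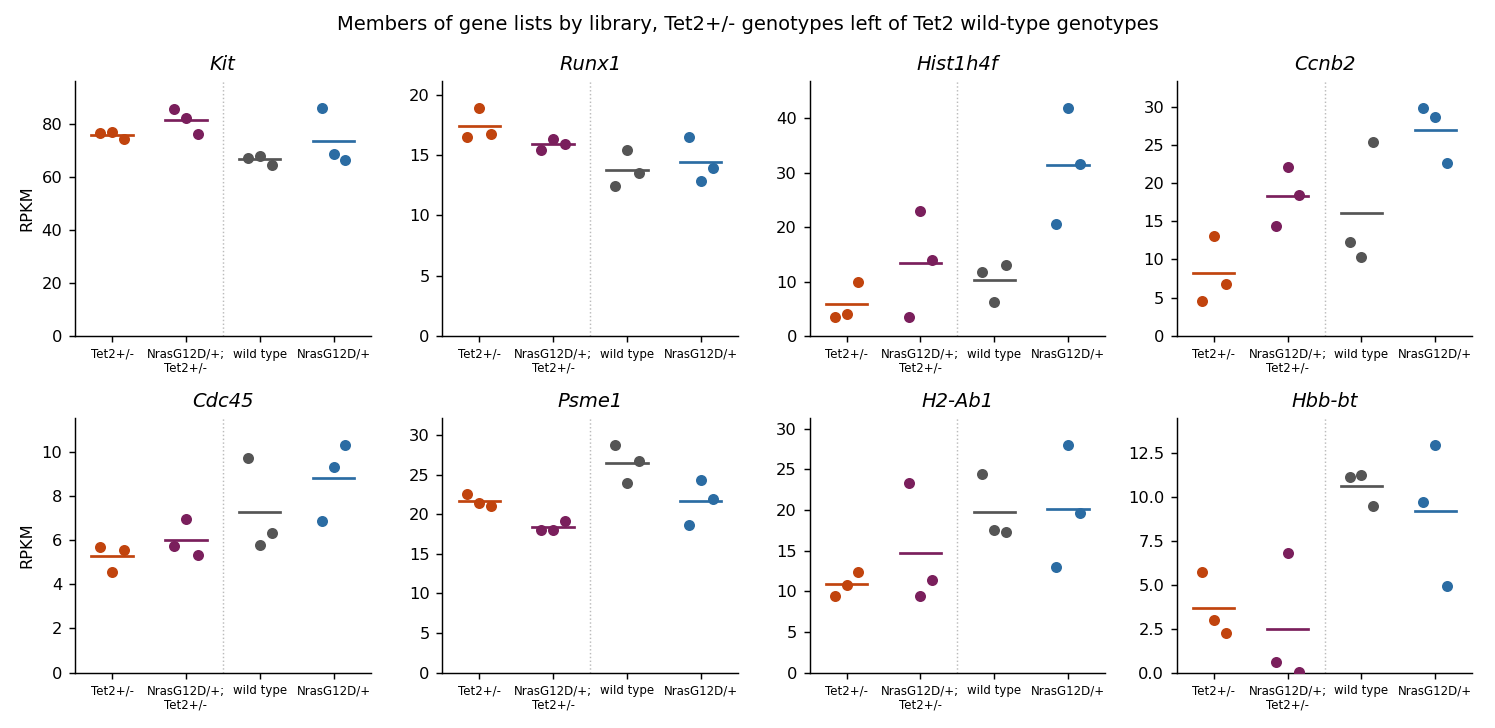
RPKM of 8 list members (y axes, from 0) in each library (dots) by genotype, with the genotype mean as a line, Tet2+/- and NrasG12D/+;Tet2+/- to the left of wild type and NrasG12D/+. The groups overlap in every panel, with carrier medians of 76.8 RPKM for Kit, 5.64 RPKM for Cdc45 and 11.1 RPKM for H2-Ab1 against 67.7, 8.08 and 18.6 RPKM in Tet2 wild-type libraries.

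Genes of differentiated lineages were mostly low, and none passed the test. Of 17 tested erythroid genes 11 were lower and 6 higher, with a median of -0.239. Leaving out wild-type replicate 2 gave -0.415, and leaving out wild-type replicate 1 gave -0.038. Hbb-bt, an adult beta globin, ranged from 0.0612 to 6.82 RPKM (median 2.62) in carriers and from 4.93 to 12.9 RPKM (median 10.4) in Tet2 wild-type libraries, a log2 difference of -2.69 ± 0.93. The summed level of the 24 erythroid genes in the table nevertheless overlapped, from 175 to 228 RPKM in carriers and from 186 to 243 RPKM in Tet2 wild-type libraries. Elane, neutrophil elastase, had 5.80, 1.77 and 0.05 RPKM in Tet2+/- replicates and no read in the other 9 libraries. Prg2, an eosinophil granule protein, had 2.72, 3.36 and 56.6 RPKM in NrasG12D/+;Tet2+/- replicates, no read in any Tet2+/- or wild-type replicate, and at most 0.928 RPKM in NrasG12D/+ replicates. Of 3 tested mast cell, basophil and eosinophil genes 2 were higher and 1 lower in carriers. Between NrasG12D/+;Tet2+/- and NrasG12D/+ libraries Prg2 had a log2 difference of 7.44, and the other tested members went the other way, Cpa3 by -4.96 and Gata2 by -0.18. Summed granulocyte-monocyte progenitor genes lay between 165 and 228 RPKM in carriers and between 186 and 234 RPKM in Tet2 wild-type libraries, and Mpo, the myeloid peroxidase, stayed at or below 0.953 RPKM in all libraries. Of 11 tested granulocyte-monocyte progenitor genes 6 were higher and 5 lower, with a median of 0.169 that changed sign in 9 of the alternatives run. Of these 11 genes, 2 (18.2%) had an unadjusted p under 0.05, against 3.98% over all genes tested. They were Igsf6, with 0.0179 to 1.60 RPKM (median 0.961) in carriers and 0.00407 to 1.31 RPKM (median 0.00407) in Tet2 wild-type libraries, and Prtn3, a neutrophil protease, with a log2 difference of 0.38 ± 0.17. Of 7 T and NK lineage genes 5 were higher and 2 lower, with a median of 0.882 that became -0.090 without NrasG12D/+ replicate 2. Of 5 stroma and endothelium genes 4 were higher and 1 lower, with a median of 0.713 that became 0.109 without NrasG12D/+ replicate 2. No gene of either list had an unadjusted p under 0.05. The summed T and NK genes lay between 27.8 and 47.5 RPKM in carriers and between 16.5 and 45.6 RPKM in Tet2 wild-type libraries. The part of such cells in any result was not tested. Bcl11a, a transcription factor of lymphoid priming and globin switching, ranged from 30.2 to 36.7 RPKM (median 33.2) in carriers and from 25.9 to 31.5 RPKM (median 28.3) in Tet2 wild-type libraries, a log2 difference of 0.22 ± 0.07.

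Metabolic, survival and repair lists held no gene that passed the test. Of 73 nuclear genes of oxidative phosphorylation 38 were lower and 35 higher, with a median of -0.010 that changed sign in 8 of the alternatives run, and of 23 glycolysis genes 16 were lower and 7 higher, with a median of -0.079. Gpi1, a glycolytic isomerase, averaged 27.2 ± 2.73 RPKM in carriers and 31.0 ± 2.04 RPKM in Tet2 wild-type libraries (SD, n = 6 each), a log2 difference of -0.19 ± 0.08. Of 12 Bcl2 family genes 9 were lower and 3 higher, with a median of -0.057 that turned positive within the 6 libraries without the Nras allele, and the higher ones included Bcl2l12 (0.74 ± 0.27) and Bid (0.64 ± 0.28), a BH3-only activator of apoptosis. DNA repair genes split into 22 higher and 19 lower of 41, and splicing factors into 17 higher and 12 lower of 29. Of 16 Hox and Meis genes 10 were higher and 6 lower, with a median of 0.089 that was 0.025 without wild-type replicate 2. Hoxa6 had 0.47 ± 0.21 and Hoxa9, a driver of HSC self-renewal, -0.28 ± 0.19. Among 14 imprinted genes 10 were higher and 4 lower, and Kcnq1ot1, an antisense RNA that silences its imprinted domain, ranged from 15.3 to 18.6 RPKM in carriers and from 11.3 to 16.3 RPKM in Tet2 wild-type libraries, a log2 difference of 0.27 ± 0.09.

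The last comparison asked whether the Tet2 effect differed with Nras genotype, as the difference between NrasG12D/+;Tet2+/- and NrasG12D/+ minus that between Tet2+/- and wild type. It called 2 genes (0.0129%) at an adjusted p of 0.05 by limma, with 523 (3.38%) at an unadjusted p under 0.05. 1600002K03Rik had 49, 79 and 76 reads in NrasG12D/+;Tet2+/- and 117, 149 and 107 in NrasG12D/+ replicates. It had 125, 21 and 61 reads in Tet2+/- and 0, 0 and 0 in wild-type replicates. The wild-type group alone was at 0, and the Tet2+/- mean was at least 19.1-fold higher. The interaction was -8.47 ± 0.86 on the log2 scale with adjusted p = 0.0144 by limma.

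Gm15371, an unprocessed pseudogene on chromosome 1, had 0, 0 and 0 reads in NrasG12D/+;Tet2+/- and 163, 69 and 42 in NrasG12D/+ replicates. It had 83, 27 and 120 reads in Tet2+/- and 0, 0 and 0 in wild-type replicates. Tet2+/- was thus at least 22.6-fold higher than wild type, and NrasG12D/+;Tet2+/- at least 27.0-fold lower than NrasG12D/+. The interaction was -16.18 ± 1.67 with adjusted p = 0.0144 by limma. As a pseudogene it may share reads with related copies and is uncertain, and its value rests on the prior added to 0 reads. Both calls were lost with quantile normalization, voom, a pseudocount of 0.5 or the replicate block, on leaving out the 2 libraries that had the most genes without a read, where AA413626 and Gm24610 passed in their place, and without any 1 of NrasG12D/+ replicates 1 and 2, NrasG12D/+;Tet2+/- replicate 2 and Tet2+/- replicate 3. That of Gm15371 was also lost without Tet2+/- replicate 1 or 2, with adjusted p of 0.0848 and 0.0792 by limma, and with 1 RPKM required in at least 6 libraries. That of 1600002K03Rik was also lost with a pseudocount of 0.1. Among the next genes by the naming rule, none of which passed the adjusted threshold, Rwdd2b had an interaction of -1.70 ± 0.34, Zfp277, a zinc finger gene, 1.78 ± 0.43 and Fgfr1op2, 0.61 ± 0.14.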

How the data were processed

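The authors deposited 1 table of log2 RPKM, a log2 unit named here as other because it is no plain count, for 18546 genes in 12 libraries. Per the submitters' processing notes, CASAVA 1.8.2, TopHat2, edgeR and the mm10 build were used, with no role stated. Whole reads were recovered from the deposited values with a prior of 0.25 reads (tolerance 0.001 reads, all 18546 genes), which gave depth, zeros and floors of 3 reads per library. Such floors cover counting error only, since without molecular identifiers PCR copies are counted as separate reads. A count of 0 is stored as the prior, so log2 differences of genes near 0 depend on it.

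Genes with a log2 RPKM of 0 or more in at least 3 libraries were kept (15478, with 3068 left out). limma 3.58.1 (R 4.3.3; moderated test, variance trend) was run on the deposited log2 values with additive terms for Tet2 and Nras genotype, 9 residual degrees of freedom, and with 1 mean per genotype for the interaction (8). Tests were two-sided with Benjamini-Hochberg adjustment over all tested genes, and ± after a log2 difference is its SE. Named genes were Tet2, Nras and, in each direction, the 10 smallest p among genes with a log2 difference of at least 0.3 and a mean of at least 1 RPKM, with the same sign in both Nras genotypes, leaving out names such as Gm and digits, Rik, Mir and Snor (Rnu names were kept), plus the 2 to 4 members of each list with the smallest p, genes past the threshold and up to 3 in each direction for the interaction, and the genes nearest to Tet2. Other genes were chosen for their known role or after their values were seen. Positions are from GENCODE M21 and sequences from RefSeq. The scripts were tested on simulated data. The lists and members were chosen with earlier results of these data known. The series' design gives 3 mice per genotype. Same-numbered libraries of different genotypes deviated together in 2 of 18 pairs at r above 0.1, and other-numbered libraries in 1 of 36, so numbers were not used as pairs.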

Additional observations from a re-analysis of the deposited data

Results flagged for a closer look

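Within the 6 Tet2 wild-type libraries, 5 values stood far from the rest, where about 1 group in 20 is marked by chance and 88 groups were examined. Wild-type replicate 2 had 14.8 RPKM of Gbp2b, against 1.01 to 2.60 RPKM in the other 5. It had 18.7 RPKM of Ifi44l, against at most 0.0306 RPKM, and 2.13 RPKM of Cbr3, against at most 0.406 RPKM. In each case its value lay within the carrier range, and the cause was not tested. Wild-type replicate 1 had 20 RPKM of Napsa, against 13.4 to 14.9 RPKM in the other 5. NrasG12D/+ replicate 1 had 7.03 RPKM of Tet2, against 4.84 to 5.27 RPKM in the other 5. Without that replicate the log2 difference of Tet2, carriers minus Tet2 wild type, was -0.05.

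The Tet2 effect differed between Nras genotypes for 2 genes by the interaction test of limma. For 1600002K03Rik the log2 interaction was -8.47, from -0.68 between NrasG12D/+;Tet2+/- and NrasG12D/+ and 7.78 between Tet2+/- and wild type. For Gm15371 it was -16.18, from -8.15 between NrasG12D/+;Tet2+/- and NrasG12D/+ and 8.03 between Tet2+/- and wild type.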

How the results depend on the processing

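The count of genes between carriers and Tet2 wild type was 0 in 26 of the 28 alternatives run. It was 1 without wild-type replicate 2 (range 0 to 1 when each library was left out) and 2 within the 6 NrasG12D/+ libraries, where Gm22516 and Gm24610 passed. The interaction count of 2 became 1 with 1 RPKM in at least 6 libraries and with log2(RPKM + 0.1), and 0 with log2(RPKM + 0.5), with quantile normalization, with the replicate block and with voom. It stayed at 2 on leaving out the 2 libraries that had the most genes without a read, but with other genes, and ranged from 0 to 6 when each library was left out. The replicate block left 0 genes between carriers and Tet2 wild type. Numbers were not used as pairs, although every replicate 1 library was male and every replicate 2 library female. No named gene reversed, and Gbp2b alone among those of the carrier comparison changed side of the threshold, in 1 setting. That setting left out wild-type replicate 2, which was singled out by its own Gbp2b level. The cause of these shifts was not tested. For genes under 1 RPKM the median SE was 1.95, and the parts of depth and of the prior in it were not tested. RefSeq promoters matched 56.8% of tested genes, under the 80% needed, so a check of promoter CpG content was void.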

Other observations

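A second family of guanylate-binding genes on chromosome 5, gathered after the values of Gbp2b were seen, had lower carrier values for 5 of 6 tested members. Wild-type replicate 3 was the highest of the 12 libraries for those 5, with 7.37 RPKM of Gbp9 against at most 4.46 RPKM in the other 11, and 10.0 RPKM of Gbp10 against at most 3.68 RPKM. It had 7.21 RPKM of Gbp4 against at most 5.24 RPKM, 9.05 RPKM of Gbp6 against at most 3.80 RPKM and 6.69 RPKM of Gbp11 against at most 2.04 RPKM. For Gbp9 the other 5 Tet2 wild-type libraries, from 3.65 to 4.46 RPKM, were still above all carriers, and the family was not fitted without that replicate. Gbp9 ranged from 2.28 to 3.57 RPKM (median 3.08) in carriers and from 3.65 to 7.37 RPKM (median 4.42) in Tet2 wild-type libraries, with no overlap and a log2 difference of -0.66 ± 0.19. It is among the 20 genes (0.129% of those tested) without overlap. Gbp4 had a log2 difference of -0.77 ± 0.34 and Gbp10 -0.98 ± 0.48. Gbp6 had -0.46 ± 0.55, Gbp11 -0.69 ± 1.46 and Gbp8 0.13 ± 0.48, with wide intervals that include 0. None passed the adjusted threshold by limma, and the paralogs may share reads.

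Small nucleolar and structural RNAs were a further list. Of 12 tested, 8 were lower and 4 higher in carriers, with a median log2 difference of -0.211. Snora73b, a small nucleolar RNA, averaged 1.14 ± 2.53 RPKM in carriers and 6.45 ± 6.37 RPKM in Tet2 wild-type libraries (SD, n = 6 each). Rnu12, the U12 RNA of the minor spliceosome, had 0, 43 and 20 reads in NrasG12D/+;Tet2+/- replicates and no read in any NrasG12D/+ replicate. It had 8, 0 and 0 reads in Tet2+/- replicates and 37, 12 and 29 in wild-type replicates.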
